A study of Mus musculus with 12 samples.

Results

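The comparison described here set 3 livers of mice that had lost the mitochondrial carrier gene Slc25a34 in their hepatocytes against 3 control livers, all on chow. It used the 6 columns of the deposited read count table labelled as knockout or control on chow, out of 12 libraries, and all genes of that table. All 12 mice were males that carried a floxed Slc25a34 allele, with loxP sites in the promoter and in intron 1, and received an adeno-associated virus of serotype 8 (AAV8) at 2 months of age. In the knockout mice (Slc-HKO, here HKO) the virus brought Cre recombinase under the thyroxine binding globulin (TBG) promoter, which is active in hepatocytes. In the controls (WT) it brought green fluorescent protein under the same promoter, so the WT mice were floxed, injected mice and not mice without the allele. The 6 mice compared ate chow for 1 month after the virus and for 2 further months, and were fasted for 16 hours before the liver was taken. The other 6 spent those last 2 months on a fast-food diet (FFD). RNA came from whole liver. The labels put the share of hepatocytes reached by the virus above 95%, and the Kupffer, endothelial, stellate, bile duct and blood cells of the liver are not where this promoter is active. Reads of the later exons could also remain where the part between the loxP sites was removed.

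SLC25 proteins are carriers of the inner mitochondrial membrane. Each moves certain metabolites, nucleotides or protons between the cytosol and the mitochondrial matrix, and the family includes the carriers of ADP and ATP, of phosphate, of citrate, of dicarboxylates and of acylcarnitine. SLC25A34 is a member whose substrate is not settled, and by sequence it groups with the dicarboxylate and oxoglutarate carriers and with its close relative SLC25A35. In the fasted liver, mitochondria oxidise fatty acids and form ketone bodies, a programme driven by the nuclear receptor PPARα.

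The promoter of Slc25a34 is shown first because the 5′ loxP site was placed in it, and that of Odf3b because it was another of the 3 genes that passed the test. Both come from RefSeq on build GRCm38.p6, read 5′ to 3′ on the minus strand, at chr4:141623892-141624084 for Slc25a34 and chr15:89379283-89379504 for Odf3b. Capitals mark matches on either strand to the CCAAT box (letters CCAAT), the TATA box (letters TATAAA), the GC box (letters GGGCGG) and the E-box (letters CACGTG). The exact position of the loxP site within the promoter is not given in the sources used here.
Slc25a34: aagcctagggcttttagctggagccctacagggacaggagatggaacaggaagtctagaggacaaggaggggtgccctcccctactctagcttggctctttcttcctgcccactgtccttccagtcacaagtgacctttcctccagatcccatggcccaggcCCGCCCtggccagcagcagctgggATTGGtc
Odf3b: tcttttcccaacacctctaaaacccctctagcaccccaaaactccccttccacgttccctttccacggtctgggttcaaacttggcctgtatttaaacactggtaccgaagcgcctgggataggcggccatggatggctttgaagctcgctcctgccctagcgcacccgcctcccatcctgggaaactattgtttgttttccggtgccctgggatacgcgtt
The 193 bases of the Slc25a34 window held a reversed GC box at position 163 and a reversed CCAAT box at position 187, counted from the 5′ end. Of 32851 RefSeq promoter windows cut to the same length, 23.5% held a GC box and 27.3% a CCAAT box on either strand. The 222 bases of the Odf3b window held no match to the 4 motifs.

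Total counts of the 6 libraries ran from 12842187 to 17509039, and 14277 of 54532 listed genes had enough reads to be tested. HKO replicate 2 and WT replicate 3 stood apart from their groups. On the first principal component of the 6 libraries, with 37.9% of the variance, HKO replicates 1 and 3 lay at 26.0 and 21.1, while HKO replicate 2 lay at −10.7, among the WT libraries at −16.4, −13.9 and −6.2. Its rank correlations with the WT libraries, 0.983 to 0.987, were above those with its own group, 0.978 and 0.981. WT replicate 3 lay at −28.8 on the second component (24.6%), and the acute phase protein gene Saa2 stood in it at 1153 CPM against 3.30 to 49.9 CPM elsewhere. Here CPM is the count scaled to a common library size. The main counts, and genes that stand apart in either library, are given with and without it, and list medians with their range over the fits that leave out 1 library.

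Slc25a34 fell in HKO livers and was low in all 3. The gene (ENSMUSG00000040740; mm10 chr4:141618824-141623821, minus strand) had 116, 88 and 109 counts in WT replicates 1, 2 and 3 and 4, 13 and 9 counts in the HKO libraries. On the scale of CPM these were 6.89, 4.92 and 6.99 against 0.308, 0.720 and 0.585. The groups did not overlap, HKO replicate 2 held the most remaining Slc25a34 reads of its group, and no HKO library was without them. The means were 6.27 ± 1.17 CPM in WT and 0.538 ± 0.210 CPM in HKO livers (SD, n = 3 each), an 11.2-fold lower level in the fit (log2 fold change −3.48, SE 0.45, edgeR adjusted p = 0.024). Here and in all that follows, an edgeR adjusted p is that of the quasi-likelihood test after the Benjamini-Hochberg method over all tested genes, and 0.05 was the threshold. An exact two-sided permutation test of its 6 values gave p = 0.1, the smallest that 3 against 3 mice allow. In whole liver, fewer cells of a type and less RNA per cell cannot be told apart.

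Tmem82, a gene of a predicted transmembrane protein, fell as well. It lies at mm10 chr4:141613376-141618633, on the same strand and just downstream of Slc25a34, with 190 bases between the end of one gene and the start of the other. Its level was 27.4, 24.7 and 28.04 CPM in the WT livers and 14.7, 17.7 and 14.4 CPM in the HKO livers, so the groups were apart, and HKO replicate 2 was again the highest of its group. The log2 fold change was −0.77 (SE 0.10, edgeR adjusted p = 0.024). An exon of Tmem82 overlaps the antisense gene AI507597, and reads of the 2 cannot be told apart because strand use is not stated.

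The other genes around Slc25a34 showed no shared direction. Of 23 genes listed within 250 kb, 13 were tested, counting Slc25a34 and Tmem82. Plekhm2, a lysosome positioning gene that begins upstream and ends 1912 bases before Slc25a34, stood at 18.4, 21.6 and 22.3 CPM in WT and 21.6, 21.9 and 22.2 CPM in HKO livers (log2 fold change 0.08, SE 0.10). Its groups overlapped. The farthest upstream, Efhd2, which encodes a calcium-binding protein, had 44.2, 55.4 and 54.5 CPM in WT and 99.7, 66.2 and 107 CPM in HKO livers, with no overlap but no passing test (0.82, SE 0.16, edgeR adjusted p = 0.11). The remaining 10, Plekhm2 among them, had log2 fold changes between −0.24 and 0.51.

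**Figure D1:**
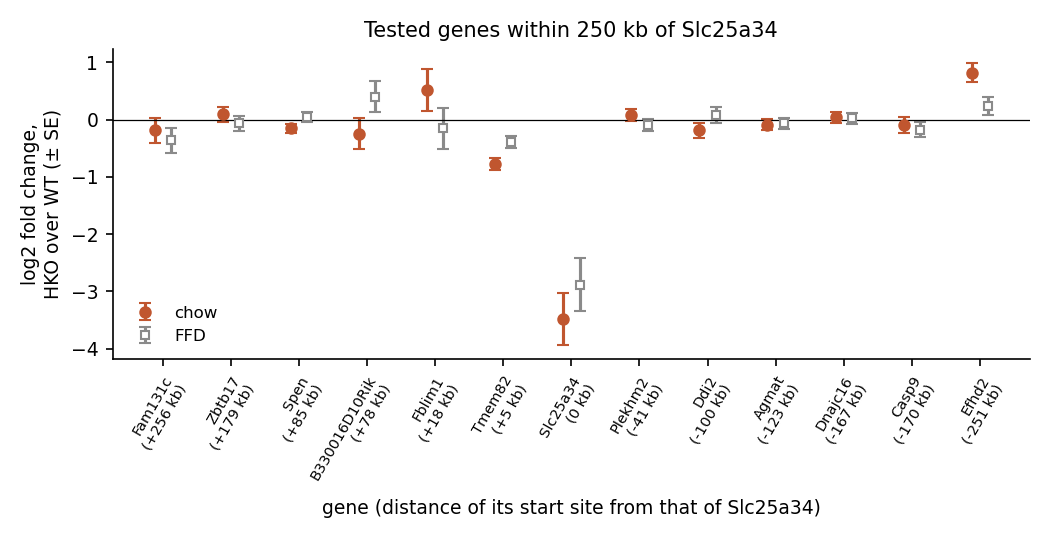
Log2 fold change of HKO over WT (± SE) for the 13 tested genes within 250 kb of Slc25a34, ordered by the distance of their start sites in kb, on chow (filled circles) and on FFD (open squares). Slc25a34 at −3.48 and Tmem82 at −0.77 are the low points on chow, and Efhd2 at 0.82 is the high one.

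Odf3b, a gene named for its likeness to a protein of the outer dense fibres of sperm tails, was the third gene that fell. It lies at mm10 chr15:89377449-89379282 on the minus strand and stood at 13.5, 10.9 and 10.9 CPM in WT and 6.47, 6.64 and 6.44 CPM in HKO livers, with no overlap and almost the same level in all 3 HKO livers. The log2 fold change was −0.85 (SE 0.11, edgeR adjusted p = 0.024). Tymp, which encodes thymidine phosphorylase of nucleoside breakdown, lies 409 bases downstream of Odf3b on the same strand of chromosome 15 and was looked up after the values of Odf3b were seen. Tymp had 76.8, 61.1 and 60.96 CPM in WT and 40.4, 48.2 and 33.5 CPM in HKO livers, also without overlap, and missed the threshold (−0.70, SE 0.13, edgeR adjusted p = 0.10). Exons of Tymp overlap Sco2 on the same strand and Ncaph2 on the other, so its reads may be shared.

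**Figure D2:**
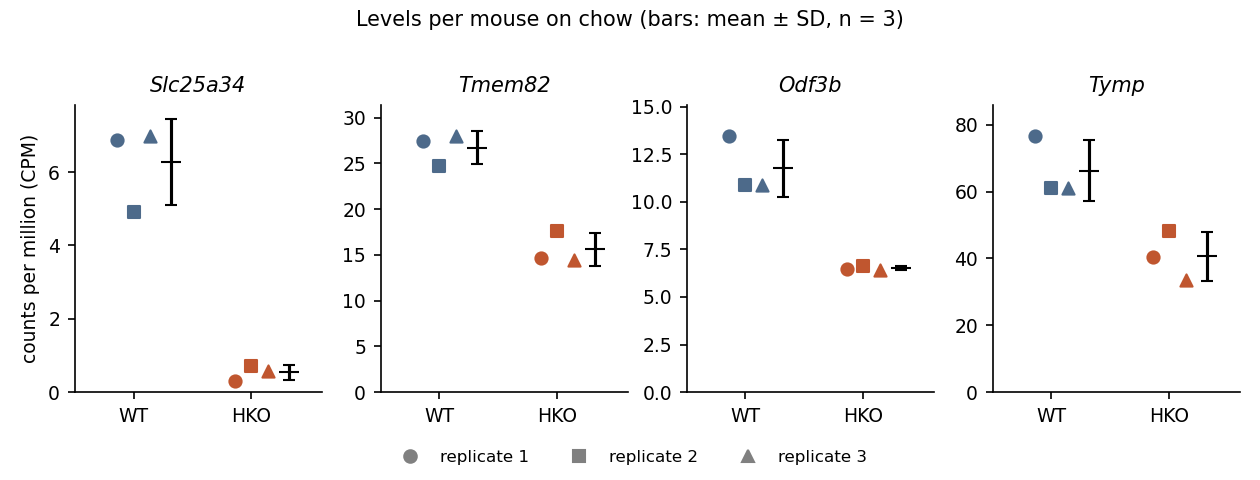
Levels in CPM of Slc25a34, Tmem82, Odf3b and Tymp in each mouse on chow, with marker shapes for the replicate numbers and bars for the mean ± SD (n = 3). In each panel the 3 WT values lie above the 3 HKO values.

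These 3 genes were all that passed over the transcriptome. Of the 14277 tested genes 3 fell (0.021%) and 0 rose (0%) at an edgeR adjusted p under 0.05. At an unadjusted p under 0.05 there were 867 lower (6.07%) and 813 higher (5.69%), 1680 in all where 714 are the average under no difference, and genes vary together. Groups did not overlap for 1055 genes lower in HKO (7.39%) and 979 genes higher (6.86%). The median log2 fold change over all tested genes was 0.0019, with 49.6% of values negative and 50.4% positive.

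How many genes passed turned on the tool and on HKO replicate 2. DESeq2 called 58 genes lower (0.337%) and 61 higher (0.355%), among them the 3 of edgeR. Without HKO replicate 2, edgeR called 180 lower (1.23%) and 133 higher (0.911%), and 91 of these 313 were also called by DESeq2. Without WT replicate 3 it called 6 lower (0.0409%) and 6 higher (0.0409%), without WT replicate 1 it called 1 lower (0.00684%) and 0 higher, and without WT replicate 2 it called 3 lower (0.0205%) and 1 higher (0.00684%). The edgeR adjusted p of Slc25a34 was 0.11 without WT replicate 1. Without HKO replicate 1 or HKO replicate 3 edgeR called 0 in either direction, and the edgeR adjusted p of Slc25a34 was then 0.21 and 0.23, at log2 fold changes of −3.24 and −3.52. HKO replicate 2 was the library with the widest effect on the count, and its Slc25a34 level, 0.720 CPM, was far below every WT level.

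**Figure D3:**
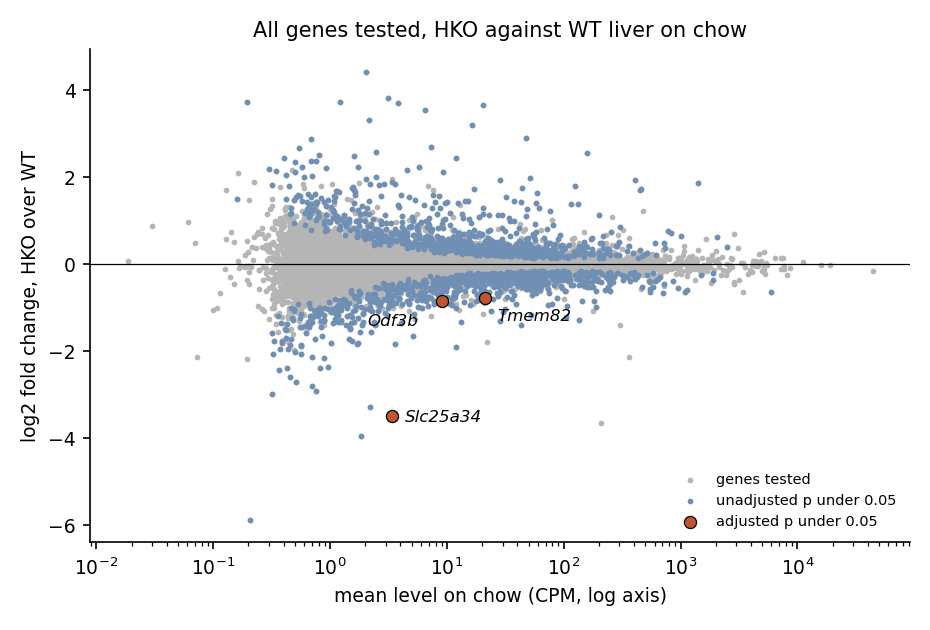
Log2 fold change of HKO over WT against the mean level on chow (CPM, log axis) for the 14277 tested genes, with genes at an unadjusted p under 0.05 in blue and the 3 at an adjusted p under 0.05 as labelled large points. Slc25a34 lies at −3.48, well below most genes of its level, and Tmem82 and Odf3b lie among other low points at their levels.

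Genes just short of the threshold on the low side included a ubiquitin ligase and a regulator of growth signalling. Rnf125, a ubiquitin ligase of antiviral signalling, stood at 72.1, 53.9 and 61.5 CPM in WT and 16.6, 32.6 and 21.2 CPM in HKO livers (log2 fold change −1.41, SE 0.22, edgeR adjusted p = 0.064). The highest HKO value, in replicate 2, was below the lowest WT value. Rictor, a core subunit of mTOR complex 2, had 38.4, 36.4 and 37.02 against 24.8, 29.1 and 25.2 CPM (−0.50, SE 0.09). Fubp1, a DNA-binding regulator of Myc transcription, had 59.97, 74.6 and 79.9 against 43.3, 47.4 and 44.5 CPM (−0.66, SE 0.10). Ocel1, of unsettled function, had 34.5, 30.3 and 29.8 against 18.7, 20.8 and 14.6 CPM (−0.81, SE 0.14), and its exons overlap Nr2f6 on the other strand. In none of these 4 genes did the groups overlap. H2-Q1, of the MHC class I family, stood at a log2 fold change of −3.95 (SE 0.59), with 4.22, 4.41 and 1.67 against 0.308, 0.111 and 0.260 CPM. Its reads can be divided with near-identical H2-Q genes. The edgeR adjusted p of these 5 genes lay between 0.058 and 0.076.

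On the high side, several of the genes nearest to the threshold encode transporters and products of hepatocytes around the central vein. Slc13a3, a plasma membrane carrier that takes up dicarboxylates such as succinate, stood at 6.71, 4.69 and 8.41 CPM in WT and 14.2, 15 and 15.1 CPM in HKO livers (log2 fold change 1.17, SE 0.20, edgeR adjusted p = 0.064). The HKO values lay within 1 CPM of each other, above all WT values. Slc39a4, a zinc importer, had 31.4, 32.6 and 24.4 against 48.3, 48.1 and 50.4 CPM (0.73, SE 0.12). Glul, the glutamine synthetase of the innermost pericentral hepatocytes, had 754, 824 and 785 against 1408, 1034 and 1294 CPM (0.66, SE 0.12), with HKO replicate 2 the lowest of its group but above WT. Cyp2a5, a cytochrome P450 that oxidises coumarin and nicotine, had 188, 315 and 135 against 877, 542 and 661 CPM (1.71, SE 0.30), and near-identical Cyp2a genes can share its reads. WT replicate 2 was the highest control for Glul and Cyp2a5 and HKO replicate 1 the highest of all. Tmcc2, a coiled-coil protein of the endoplasmic reticulum, had 6.65, 6.70 and 8.98 against 12.9, 14.2 and 14.9 CPM (0.91, SE 0.15). For these 5 genes no HKO value reached down to a WT value, and the edgeR adjusted p lay between 0.064 and 0.076. Rgs16, a brake on G protein signals that fasting is known to raise in liver, had 14.1, 23.2 and 22.1 CPM in WT and 77.3, 30.6 and 94.7 CPM in HKO livers, and the protease inhibitor Serpine2 had 17.4, 24.4 and 21.7 against 37.9, 31.8 and 44.5 CPM. HKO replicate 2 was the HKO library closest to the WT values in both.

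Several of the largest positive values rested on 1 library. The rule for large changes took protein-coding genes with an unadjusted p under 0.01 and separate groups whose higher mean reached 1 CPM, which left 374 genes, and named the 12 farthest in each direction. Muc6, a mucin of stomach and gallbladder, stood at 4.43 with 1.08, 10.2 and 0.390 CPM in HKO livers against 0.0642 to 0.335 CPM in WT. Tnnt2, cardiac troponin T, stood at 3.33 with 0.693, 10.5 and 0.715 CPM in HKO livers, HKO replicate 2 being the high library in both genes, and without it the values were 1.97 and 0.81. Scara5, a ferritin receptor, had 75.4, 6.59 and 30.7 CPM against 3.21, 1.73 and 3.85 CPM, and Mup18, a major urinary protein gene whose reads its family can share, 30.1, 1.72 and 4.36 against 0.713, 0.894 and 1.41 CPM. In both of these genes HKO replicate 1 was the highest and HKO replicate 2 the closest to WT.

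Among the large decreases the levels were low. Apart from H2-Q1 and Slc25a34, Esm1, a proteoglycan secreted by endothelial cells, had 2.91, 8.16 and 0.962 CPM in WT and 0.385, 0.498 and 0.325 CPM in HKO livers (−3.29, SE 0.82). The adaptor gene Stap1 had 1.31, 0.615 and 2.12 against 0.0770, 0.277 and 0.130 CPM (−2.91, SE 0.60). Vldlr, the receptor for very low density lipoprotein, had 3.44, 2.91 and 3.72 against 0.693, 1.99 and 0.585 CPM (−1.57, SE 0.47). None of the genes named for large changes passed apart from Slc25a34, and with HKO replicate 2 left out Vldlr stood at −2.39 (edgeR adjusted p = 0.034).

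The SLC25 family showed no common shift beside the loss of Slc25a34. Per length, Slc25a34 was a weakly expressed carrier already in WT liver, at a mean of 2.35 reads scaled by library size and gene length (RPKM), against 66.9 RPKM for the dicarboxylate carrier Slc25a10, 30.1 for the oxoglutarate carrier Slc25a11 and 0.104 for its relative Slc25a35. Of 42 other tested carriers 18 had negative and 24 positive log2 fold changes, 2 were lower without overlap (background 7.39%) and 4 higher (6.86%), and the median was 0.03 (range −0.02 to 0.08). Ranges after this and later list medians are those of the median with each of the 6 chow libraries left out in turn. Without HKO replicate 2, 2 of the carriers passed as lower, where 1.23% of all genes did. Slc25a35 had 0.416, 0.279 and 0.449 CPM in WT and 1.08, 0.775 and 0.585 CPM in HKO livers, so few reads that its value of 1.07 carried an SE of 0.55. Slc25a10 stood at 278, 215 and 201 against 229, 243 and 205 CPM (−0.04, SE 0.11) and Slc25a11 at 70.5, 56.5 and 64.4 against 60.7, 56.6 and 62.3 CPM (−0.09, SE 0.09), both with overlapping groups. The carriers with the smallest p were Slc25a37, the iron importer mitoferrin 1, with 37.6, 52.02 and 39.5 against 61.4, 58.9 and 59.6 CPM, the basic amino acid carrier Slc25a29, and the uncoupling protein Ucp2, at 0.48, 0.59 and 0.34. Slc25a47, a liver carrier and the most expressed of the tested carriers at 376 RPKM in WT, divided the HKO group. It stood at 1255, 1041 and 1073 CPM in WT and 528, 1207 and 568 CPM in HKO livers, with replicate 2 within the WT range, and its log2 fold change was −0.55 (SE 0.24) with and −1.04 without that library.

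Target genes of PPARα had mostly negative values. Of 25 tested targets 24 had a negative log2 fold change, 9 were lower without overlap (background 7.39%), 11 had an unadjusted p under 0.05 (6.07%) and 0 passed. The median was −0.29 (range −0.39 to −0.24), against 0.0019 over all tested genes. Acot2, a mitochondrial acyl-CoA thioesterase, had 39.9, 33.7 and 48.6 CPM in WT and 10.1, 25.8 and 12.7 CPM in HKO livers (−1.31, SE 0.27), without overlap. Acadm, the medium-chain acyl-CoA dehydrogenase, had 697, 648 and 707 against 496, 568 and 520.1 CPM (−0.37, SE 0.09), again apart. The cytosolic thioesterase Acot1 had 299, 273 and 323 against 158, 256 and 171 CPM (−0.61, SE 0.18). HKO replicates 1 and 3 were the low libraries in all 3 genes, and without HKO replicate 2 the values were −1.83, −0.43 and −0.86, with an edgeR adjusted p of 0.0019, 0.041 and 0.015. Reads of the Acot genes may be divided among close relatives. Ppara itself, which is counted among the 25, stood at 273, 249 and 279.8 CPM in WT and 220.4, 230.0 and 208 CPM in HKO livers (−0.28, SE 0.09), without overlap. Fgf21, a fasting hormone under PPARα control, had 12.2, 11.4 and 33.8 CPM in WT and 0.693, 12.3 and 1.76 CPM in HKO livers (−1.90, SE 0.70). HKO replicate 2 lay within the WT range of Fgf21, whose log2 fold change was −3.92 without that library (edgeR adjusted p = 0.0088). The list score, the mean of the members' centred log2 CPM, was 0.27, 0.03 and 0.43 in WT and −0.43, 0.06 and −0.37 in HKO replicates 1, 2 and 3, so HKO replicate 2 stood among the controls. Without HKO replicate 2 the median was −0.38 and 6 of 25 genes passed as lower, where 1.23% of all genes did. With any of the other 5 chow libraries left out 0 passed in edgeR. With all libraries kept, DESeq2 called 2 of the 25 targets lower (background 0.337%).

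**Figure D4:**
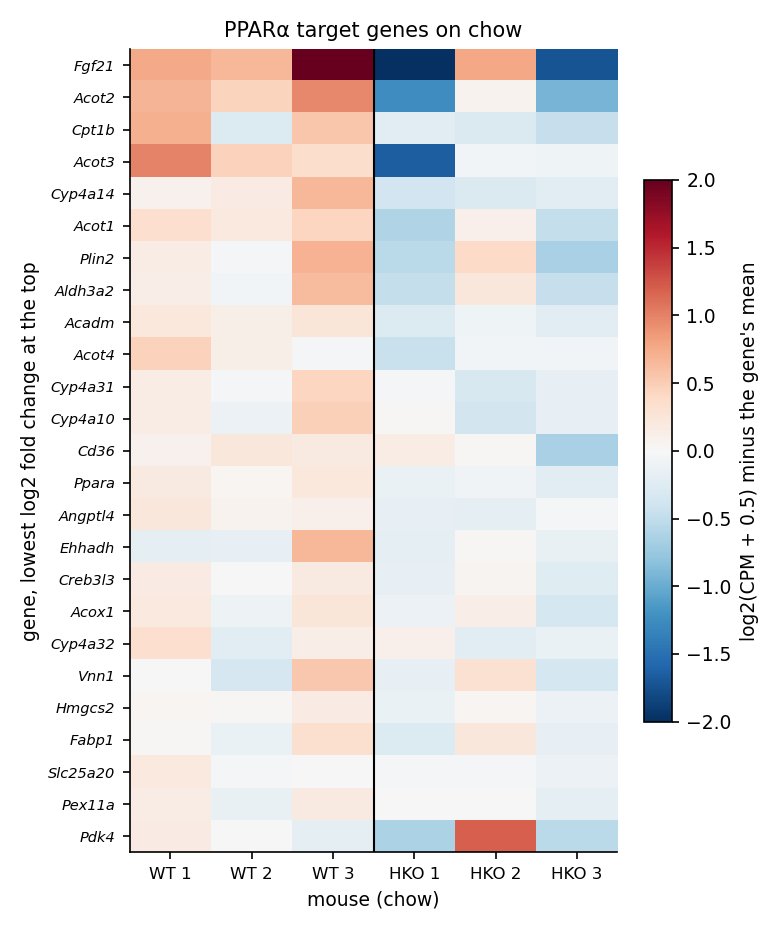
Log2(CPM + 0.5) minus each gene's mean for the 25 tested PPARα targets (rows) in the 6 mice on chow (columns), red for high and blue for low. HKO 1 and HKO 3 are blue for most genes, and HKO 2 resembles the WT columns more, with Fgf21 in red.

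Fatty acid oxidation and ketone body genes also had mostly negative, smaller values. For mitochondrial fatty acid oxidation 19 of 20 tested genes were negative, 6 were lower without overlap (background 7.39%) and the median was −0.15 (range −0.19 to −0.12). Hadhb, a subunit of the trifunctional protein of long-chain oxidation, stood at 347, 339 and 377 CPM in WT and 288, 318 and 284 CPM in HKO livers (−0.26, SE 0.07). Cpt1a, which admits fatty acids into mitochondria, stood at 996, 854 and 1084 against 729.5, 857 and 672 CPM (−0.38, SE 0.12), and here HKO replicate 2 reached the WT range. All 6 ketone body genes were negative, 3 of them without overlap (7.39%), with a median of −0.18 (range −0.26 to −0.16). Acat1, the thiolase of ketone body synthesis, had 622, 622 and 629 CPM in WT and 437, 525 and 441 CPM in HKO livers (−0.42, SE 0.11). Slc16a1, an exporter of ketone bodies and lactate, had 111, 112 and 144 against 67.6, 97.2 and 76.8 CPM (−0.60, SE 0.15). Of 27 peroxisomal genes 25 were negative, with a median of −0.12 (range −0.18 to −0.08). Of the same 27, 2 were lower without overlap (7.39%), near the share over all genes. In this list the carnitine acyltransferases Crat and Crot had −0.51 (SE 0.12) and −0.58 (SE 0.22). No member of these lists passed in edgeR. With all libraries kept, DESeq2 called 2 genes of mitochondrial oxidation, 2 of ketone bodies and 1 of peroxisomes lower (background 0.337%). Without HKO replicate 2, 1 gene of mitochondrial oxidation, 2 of ketone bodies and 2 of peroxisomes passed as lower, where 1.23% of all genes did.

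Medians of the respiratory chain and the citric acid cycle were close to 0. The medians were 0.04 (range −0.02 to 0.10) over 35 complex I genes, 0.03 (range −0.01 to 0.09) over 34 genes of complexes III, IV and V, 0.03 (range −0.07 to 0.13) over 13 genes of mitochondrial DNA and −0.02 (range −0.06 to 0.01) over 24 genes of the citric acid cycle. In these lists log2 fold changes ran from −0.26 to 0.27 for complex I and from −0.17 to 0.14 for the cycle. For complexes III, IV and V they ran from −0.06 to 0.22. Genes of mitochondrial DNA were spread more widely, from −0.79 (mt-Co3, SE 0.51) to 0.35. The signs of all 4 medians flipped with some library left out. The smallest p of complex I belonged to Ndufb6, a membrane subunit, at 0.21 (SE 0.08), and that of the cycle to Suclg1, a subunit of succinyl-CoA ligase, at −0.17 (SE 0.08). Of 25 genes of mitochondrial biogenesis and dynamics 12 were negative and 13 positive, with a median of 0.00 (range −0.04 to 0.05). Tfam, which maintains mitochondrial DNA, had 48.7, 45.5 and 47.8 CPM in WT and 44.9, 43.01 and 42.7 CPM in HKO livers (−0.12, SE 0.07), without overlap, and the coactivator Ppargc1a 17.3, 12.6 and 10.6 against 21.4, 11.3 and 16.7 CPM (0.28, SE 0.24), with overlap. Among 12 genes of the mitochondrial stress response Clpx, the unfoldase of the matrix protease ClpXP, had 224, 202 and 272 CPM in WT and 114, 158 and 116 CPM in HKO livers (−0.85, SE 0.19), with the groups apart, and the list's median was −0.05 (range −0.06 to −0.03). The 52 mitochondrial ribosomal protein genes had a median of −0.01 (range −0.04 to 0.03), with 5 lower (background 7.39%) and 1 higher (6.86%) without overlap, the first near the share over all genes.

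Lipid storage and synthesis genes had values of both signs. Of 27 genes of triglyceride synthesis and lipid droplets 20 were negative (median −0.16, range −0.18 to −0.10), with 2 lower (7.39%) and 2 higher (6.86%) without overlap, shares close to those over all genes. Lpin1, a phosphatidate phosphatase that also acts as a coactivator of PPARα, had 217, 247 and 172 CPM in WT and 947, 343 and 821 CPM in HKO livers (1.73, SE 0.37), and G0s2, an inhibitor of the lipase ATGL, 156, 167 and 256 against 76.7, 119.5 and 42.1 CPM (−1.28, SE 0.31). HKO replicate 2 was nearest to WT in both, neither pair of groups overlapped, and without that library the values were 2.05 and −1.71 (edgeR adjusted p = 0.0075 and 0.014). Lpl, lipoprotein lipase, stood at 14.4, 17.6 and 10.97 against 29.7, 39.4 and 25.7 CPM (1.14, SE 0.27), and here HKO replicate 2 was the highest. Of 18 genes of fatty acid synthesis 12 were positive, with a median of 0.06 (range −0.05 to 0.12) that was −0.05 without HKO replicate 2. The fatty acid synthase gene Fasn had 115, 107 and 127 CPM in WT and 136, 185 and 143 CPM in HKO livers (0.41, SE 0.12), and the desaturase Scd1 1498, 1684 and 785 against 815, 1086 and 638 CPM (−0.64, SE 0.26), with overlap. Of 24 cholesterol synthesis genes 17 were positive (median 0.13, range 0.01 to 0.19). Without HKO replicate 2 that median was 0.01. Cyp8b1, the sterol hydroxylase of cholic acid synthesis, had 841, 866 and 915 against 485, 623 and 544 CPM (−0.67, SE 0.20), without overlap, while the median of 21 bile acid genes was 0.12 (range 0.09 to 0.20).

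For glucose metabolism 15 of 21 glycolysis and glycogen genes were positive, 3 of them without overlap (background 6.86%), with a median of 0.12 (range 0.08 to 0.14). Pfkfb3, which makes the activator of phosphofructokinase, had 19.1, 40.4 and 26.9 CPM in WT and 95.9, 65.4 and 107 CPM in HKO livers (1.63, SE 0.37). Of 19 fasting and gluconeogenesis genes 13 were positive, and the median of 0.17 (range 0.02 to 0.36) was 0.02 without HKO replicate 2. Igfbp1, a binding protein of insulin-like growth factors that insulin represses, had 92.7, 46.04 and 51.8 against 147, 192 and 162 CPM (1.39, SE 0.33), with all HKO values above WT. No gene of either list passed in edgeR over all 6 libraries, and DESeq2 called 1 gene of glycolysis and glycogen higher (background 0.355%).

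Genes of pericentral hepatocytes included several with higher levels in all 3 HKO livers. Of 26 tested 18 were positive, 6 were higher without overlap (background 6.86%) and 0 lower, and the median was 0.09 (range 0.08 to 0.17). On the low side 2 members had an unadjusted p under 0.05 (6.07%), Axin2, a feedback inhibitor of Wnt signals, at −0.60 (SE 0.24) and the phosphatase gene Lhpp at −0.42 (SE 0.19), both with overlap. Without HKO replicate 2, 3 members passed as higher (0.911%) and 1 as lower (1.23%), and without WT replicate 2 or WT replicate 3 1 passed as higher. Apart from Slc13a3, Cyp2a5 and Glul, Cyp1a2, which metabolises caffeine, had 239.9, 192 and 139 CPM in WT and 301, 334 and 319 CPM in HKO livers (0.74, SE 0.25). Wnt2, a signal that endothelial cells of the central vein send to neighbouring hepatocytes, had 3.86, 3.52 and 4.75 against 7.70, 7.47 and 6.31 CPM (0.83, SE 0.18), and the endothelial receptor Tie1 20.4, 17.7 and 18.99 against 24.02, 27.5 and 23.99 CPM (0.40, SE 0.10). In both the HKO values were above all WT values. The summed level of the 21 endothelial markers overlapped, 804 to 902 CPM in WT and 839 to 916 CPM in HKO livers, and their median was 0.01 (range −0.01 to 0.13). Singly, 4 of the 21, Wnt2 and Tie1 among them, were higher without overlap (6.86%) and 0 were lower (7.39%). DESeq2 called 1 of the 21 higher (background 0.355%). The part of endothelial cells in the values of Wnt2 and Tie1 was not tested. Of 23 periportal genes 0 were apart in either direction (median 0.04, range −0.06 to 0.16). Of 37 conjugation enzymes 26 had positive values, and their median was 0.13 (range 0.07 to 0.27), among them the sulfotransferase Sult1d1 at 78.6, 81.7 and 58 against 309, 70.8 and 194 CPM, where HKO replicate 2 lay within the WT range.

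Clock genes had mostly positive values. Of 20 tested 15 were positive, 9 had an unadjusted p under 0.05 on the high side (5.69%), and the median was 0.32 (range 0.22 to 0.37), or 0.37 without HKO replicate 2, when 4 passed as higher against a background of 0.911%. On the low side 2 had an unadjusted p under 0.05 (6.07%), the activator genes Npas2 at −1.30 (SE 0.45) and Clock at −0.27 (SE 0.11), both without overlap. Usp2, a deubiquitinase that cycles with the clock, had 39.8, 43.1 and 23.6 CPM in WT and 104, 53.2 and 103 CPM in HKO livers (1.29, SE 0.26). The repressor gene Per2 had 30.5, 53.9 and 45.7 against 86.1, 56.6 and 76.8 CPM (0.75, SE 0.20), and the repressor Ciart 13.2, 12.7 and 8.92 against 67.9, 11.5 and 55.5 CPM (1.94, SE 0.52). HKO replicate 2 was close to WT in all 3 and inside the WT range for Ciart. Without it the log2 fold changes were 1.54, 0.90 and 2.40, with an edgeR adjusted p of 0.0055, 0.035 and 0.005. The time of day at which each liver was taken is not given in the sources used here.

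Medians of stress and signalling lists changed with HKO replicate 2, WT replicate 1 or WT replicate 3. Of 22 endoplasmic reticulum (ER) chaperone and stress genes 21 were positive with a median of 0.28 (range 0.13 to 0.62), yet 0 were apart. The list score in WT replicate 3 was 0.36 against −0.73 and −0.27 in WT replicates 1 and 2. The median was 0.62 without WT replicate 3 and 0.13 without WT replicate 1. Immediate early genes had a median of 0.29 (range −0.04 to 0.50) over 21 genes, of −0.04 without HKO replicate 2 and of 0.50 without WT replicate 1. Acute phase genes stood at −0.12 (range −0.34 to 0.39) over 24 genes and at 0.39 without WT replicate 3, in which their summed level was 37002 CPM against 16036 to 23273 CPM in the rest. Heat shock genes stood at −0.13 (range −0.30 to 0.06) over 18 genes, at 0.06 without WT replicate 3 and at −0.30 without WT replicate 1. Among genes of the integrated stress response, the transcription factor Atf4 had 94.5, 91.1 and 92.8 CPM in WT and 65.4, 80.99 and 73.4 CPM in HKO livers (−0.34, SE 0.08), without overlap. Ddit4, an inhibitor of mTOR complex 1, had 13.8, 21.7 and 26.9 against 109, 23.3 and 115 CPM (1.99, SE 0.55), with HKO replicate 2 within the WT range, and stood at 2.43 without that library. The median of the 23 genes was −0.02 (range −0.05 to 0.22) and 0.22 without WT replicate 3, and without HKO replicate 2, 3 passed as lower (1.23%) and 1 as higher (0.911%).

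**Figure D5:**
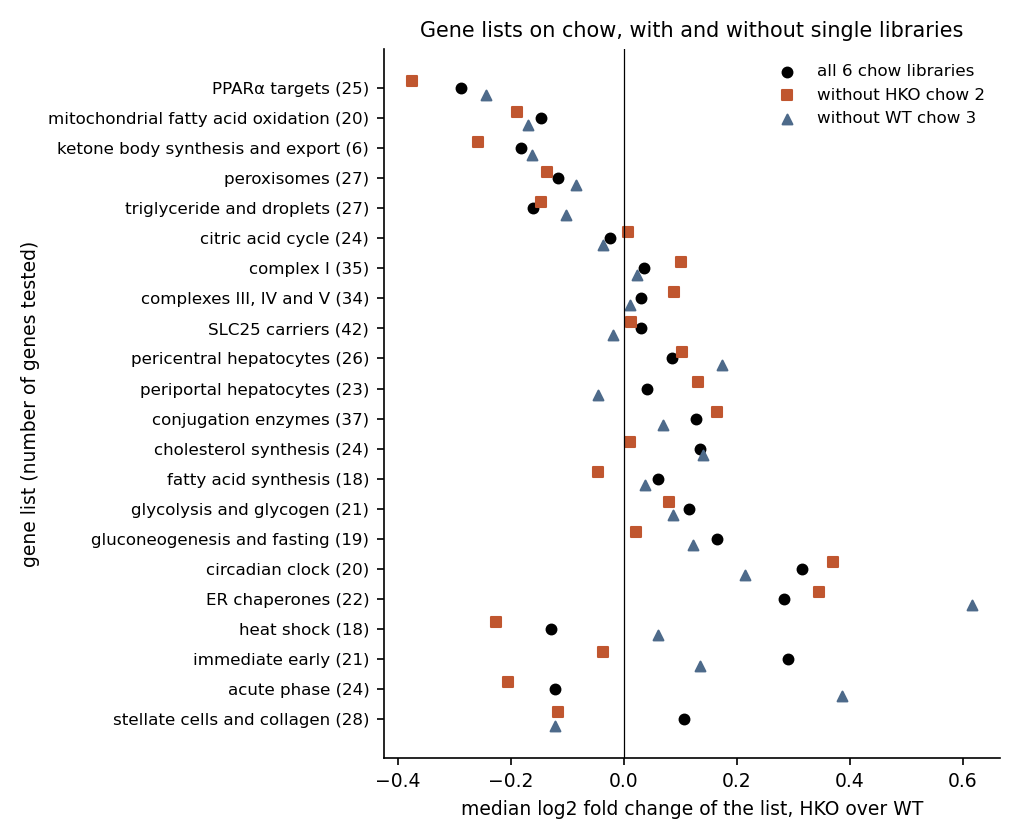
Median log2 fold change of HKO over WT for 22 gene lists, with the number of tested genes in brackets, over all 6 chow libraries (black circles), without HKO replicate 2 (squares) and without WT replicate 3 (triangles). The first 5 lists lie below 0 in all 3 settings, the citric acid cycle, fatty acid synthesis, immediate early and stellate cell medians change sign without HKO replicate 2, and the SLC25, periportal, heat shock, acute phase and stellate cell medians change sign without WT replicate 3.

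Markers of hepatocytes and of other cells were checked against the label. Alb, the albumin gene, stood at 47999.6, 50507 and 40661 CPM in WT and 38268, 42394 and 43668 CPM in HKO livers (−0.16, SE 0.12). The summed level of 22 hepatocyte markers was 101820 to 108282 CPM in WT and 91310 to 99455 CPM in HKO livers and did not overlap, and 15 of the 22 had a negative log2 fold change (median −0.06, range −0.11 to −0.03). Kupffer cell markers summed to 555 to 831 CPM in WT and 690 to 761 CPM in HKO livers. Lymphocyte and plasma cell markers summed to 13.5 to 17.0 CPM in WT and 17.7 to 21.1 CPM in HKO livers and did not overlap. Of 15 tested 12 were positive, with a median of 0.37 (range 0.34 to 0.55). Singly, 1 was lower (background 7.39%) and 2 were higher (6.86%) without overlap. Neutrophil markers summed to 106 CPM in WT replicate 3 and to 5.31 to 15.3 CPM in the other 5, so that their median of −1.03 (range −1.46 to −0.19) over 4 genes was −0.19 without that library. In HKO replicate 2 the smooth muscle actin gene Acta2 stood at 33.7 CPM against 1.31 to 2.69 CPM elsewhere, and the adipose gene Cfd at 17.0 CPM against 0.154 to 0.520 CPM. The sums of their lists in that library were the highest of the HKO group but within the WT range. Stellate cell and collagen markers summed to 731 CPM in it, against 475 to 873 CPM in WT. Adipose and muscle markers summed to 146 CPM, against 56.3 to 503 CPM in WT. By list score, however, HKO replicate 2 was the highest of the 6 libraries for both lists. Its score was 0.47 for stellate cells and collagen, against 0.08, 0.29 and −0.55 in WT. For adipose and muscle it was 0.93, against 0.03, −0.02 and −0.34 in WT. Gallbladder and gut markers scored 0.90 in HKO replicate 2, against −0.36 to 0.05 in the other 5, though their sum there, 1673 CPM, was within the WT range. Of 14 pancreas markers 8 were at 0 in all 6 chow libraries, and of 17 adipose and muscle markers 5. The part of these cells in the results was not tested.

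Male-biased liver genes, which follow the pattern of growth hormone pulses, had mostly positive values. Of 28 genes 23 were positive, 3 were higher without overlap (background 6.86%), and the median was 0.19 (range 0.12 to 0.35). Female-biased liver genes were mostly positive too, 8 of 10 tested, with a median of 0.73 (range 0.32 to 0.98). Without overlap 2 of these 10 were lower (7.39%) and 1 higher (6.86%), so positive values were not particular to male-biased genes. For cytosolic ribosomal proteins 45 of 49 genes had positive values, and the median was 0.10 (range 0.06 to 0.13). Of 27 nuclear receptors and coregulators 4 were lower (7.39%) and 4 higher (6.86%) without overlap, with the thyroid hormone receptor gene Thra at 27.4, 24.2 and 21.9 CPM in WT against 13.1, 18.99 and 13.3 CPM in HKO livers (−0.69, SE 0.17). Exons of Thra overlap the clock gene Nr1d1 on the other strand. The adipogenic receptor gene Pparg had 8.31, 8.38 and 8.08 against 2.46, 6.42 and 3.19 CPM (−1.004, SE 0.28), with no overlap and HKO replicate 2 nearest to WT. Without that library Thra and Pparg stood at −0.90 and −1.54 (edgeR adjusted p = 0.015 and 0.0075). Interferon-induced genes were negative in 22 of 37, with a median of −0.08 (range −0.27 to 0.04) that was −0.27 without HKO replicate 2 and 0.04 without HKO replicate 1.

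Further lists of liver metabolism, defence and cell type had single members apart from WT. Of 40 genes of amino acid breakdown 4 were lower without overlap (background 7.39%) and 0 higher, with a median of −0.02 (range −0.08 to 0.05), among them Amt, of the glycine cleavage system, at 48.5, 48 and 53.8 CPM in WT and 36.3, 40.4 and 35.5 CPM in HKO livers (−0.42, SE 0.11). The 17 tested genes of folate metabolism had a median of −0.05 (range −0.06 to 0.05). Among 18 secreted liver hormones, with a median of −0.11 (range −0.17 to 0.10), Inhbe, an activin subunit, had 127, 87 and 223 against 59.3, 84.5 and 44.2 CPM (−1.21, SE 0.29) and Enho, which encodes adropin, 9.03, 10.1 and 11.4 against 14.7, 13.5 and 21.2 CPM (0.70, SE 0.20). The groups were apart in both genes, and without HKO replicate 2 Inhbe stood at −1.49 (edgeR adjusted p = 0.032). An exon of Enho shares bases with Dnaic1 on the other strand. Of 24 targets of the antioxidant factor NRF2 17 were positive with a median of 0.07 (range 0.01 to 0.12), and the glutathione transferase gene Gstm3 had 9.56, 8.66 and 8.53 against 14.2, 19.2 and 22.95 CPM (1.08, SE 0.27). Of 21 proliferation genes 13 were positive (median 0.08, range −0.01 to 0.12), among them Rrm2, a subunit of ribonucleotide reductase, at 3.92, 5.31 and 4.43 against 11.9, 6.42 and 10.3 CPM (1.06, SE 0.25). Sox9, a transcription factor of bile duct cells, had 13.1, 13.4 and 17.8 against 8.93, 8.69 and 8.91 CPM (−0.74, SE 0.20), without overlap, and 3 of 11 tested bile duct markers were lower without overlap (7.39%). The median of these markers was −0.20 (range −0.57 to 0.34), and 5 were positive, the keratin gene Krt19 highest at 1.08 (SE 0.71), which was −0.88 without HKO replicate 2. The summed level of the 14 listed markers was 66.3 to 111 CPM in WT and 59.8 to 95.1 CPM in HKO livers, and its part in the value of Sox9 was not tested. No gene of these 6 lists passed in edgeR over all 6 libraries, while DESeq2 called Gstm3 and Rrm2 (adjusted p = 0.021 and 0.019). The NRF2 list kept a positive median with each library left out in turn, and the medians of the other lists changed sign without at least 1 library.

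The same genotype contrast on FFD gave other values for several of these genes, but no difference between the diets passed. Over all tested genes 1 passed on FFD (0.007%). In the interaction of genotype and diet 0 of 14277 genes passed in edgeR (0%), 1293 had an unadjusted p under 0.05 (9.06%), and DESeq2 called 87. On FFD, the log2 fold change was −2.88 (SE 0.46) for Slc25a34, −0.39 (SE 0.10) for Tmem82 and −0.01 (SE 0.11) for Odf3b. For the interaction the unadjusted p of these genes was 0.40, 0.018 and 0.00012, and the edgeR adjusted p 0.85, 0.44 and 0.23. The 25 PPARα targets had a median of 0.11 on FFD against −0.29 on chow. Acot2 stood at −1.31 on chow and 0.64 on FFD, Acot3, a peroxisomal thioesterase, at −1.07 and 1.35, and Rictor at −0.50 and 0.16. Rnf125 stood at −1.41 and 0.08, and Moxd1, a male-biased monooxygenase gene, at 2.90 and −3.71. The edgeR interaction adjusted p of these 5 genes lay between 0.23 and 0.24. In Moxd1 the WT values on chow themselves ran from 0.594 to 26.8 CPM.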

How the data were processed

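Whole-liver total RNA of 12 male mice was extracted with Trizol and made into Illumina libraries by a service provider, per the labels' protocols. The authors deposited raw read counts per gene for 54532 Ensembl identifiers, 1 column per mouse. Reads were handled with STAR and featureCounts 1.5.0-p3 on build mm10, per the submitters' processing notes. The STAR version, the annotation and the strand setting are not given in the sources used here. Of the identifiers 54495 were found in GENCODE M21, 98.33% of them with the same coordinates. Overlapping genes and near-identical families are therefore uncertain. Each deposited row had an identifier, and the number of sample columns not used was 0.

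The test was edgeR 4.0.16 in R 4.3.3 on the deposited counts: filterByExpr, TMM scaling and a quasi-likelihood fit with 1 mean per group over all 12 libraries, which pools the spread of the 4 groups. HKO was contrasted with WT on chow, two-sided, with Benjamini-Hochberg adjustment over the 14277 tested genes and a threshold of 0.05. Levels are CPM from the deposited counts and TMM-adjusted totals, list scores and components used log2 CPM with a prior count of 2, and RPKM divides CPM by the gene length in the deposited table. The fit was also run on counts simulated from its own means and spread, and the outcome is not reported here. Those counts held no library set apart from its group, so that run cannot speak to HKO replicate 2. DESeq2 1.42.0, other scalings, other filters, a replicate block and left-out libraries were the alternatives.

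Libraries of a group differed by far more than sampling noise (chi-square per degree of freedom 9.26 to 39.7), so each counted as 1 replicate. Replicates are separate mice, and p-values measure the spread between these mice. Precision is limited by 3 mice per group and, for genes of few reads, by counting error.

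The comparison, the 56 gene lists (1246 of 1253 symbols found, 1155 genes tested) and the tests were chosen with earlier results of these data known. The genes named are Slc25a34 and each gene that passed, the tested genes within 250 kb of Slc25a34, the 12 largest increases and decreases, the 10 smallest p in each direction, up to 3 genes of each list with at least 4 tested genes by smallest p, and 13 fixed genes, not all of which are printed. Some genes the rule names are not reported here. Tymp, Axin2, Lhpp, Npas2, Clock and Krt19 were added after their values were seen. Motifs were searched in promoter windows kept upstream of every annotated transcript.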

Additional observations from a re-analysis of the deposited data

How the results depend on the processing

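The direction of Slc25a34 held under all 14 alternatives, and the number of other calls did not. DESeq2 called 58 genes lower and 61 higher, edgeR with no filter on low counts 185 and 210, and the fit of only the 6 chow libraries 1 lower and 0 higher. With 1 chow library left out, calls ran from 0 to 180 lower and from 0 to 133 higher, and the log2 fold change of Slc25a34 from −3.76 to −3.24. With HKO replicate 2 and WT replicate 3 both left out, 225 were lower and 169 higher. For the interaction, DESeq2 called 87 genes and edgeR with no filter 238. The cause of these shifts was not tested.

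The replicate numbers shared by the groups pair nothing in the labels, and deviations of same-numbered mice correlated at 0.00, 0.08 and 0.03. With the number as a replicate block, 0 genes were lower and 0 higher, Slc25a34 stood at −3.55 (edgeR adjusted p = 0.052), and the interaction called 1 gene. Of 84 genes followed singly under the alternatives, Slc25a10, Cfd, Saa2 and Krt19 changed sign. With 1 library left out, Slc25a10 ran from −0.13 to 0.12, above 0 without WT replicate 1 or HKO replicate 3. Cfd ran from −0.31 to 4.35, below 0 without HKO replicate 2, and Saa2 from −4.24 to 2.10, above 0 without WT replicate 3. Krt19 ran from −0.88, without HKO replicate 2, to 1.54. With HKO replicate 2 and WT replicate 3 both left out, Cfd, Saa2 and Krt19 were −0.39, 2.24 and −1.19. The others of the 84 kept their direction under each alternative that gave a value. Genes near Slc25a34 that the report gives only in counts or ranges were not followed. With so few reads of Slc25a34 in HKO livers, its fold change is less precise than its direction.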
